A study of Homo sapiens with 38 samples.

Results

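The set described here consisted of 92 genes that rose late, and not early, after the cytokine interleukin 1 beta (IL1B) in A549 cells, an epithelial line grown from a human lung adenocarcinoma. A gene was taken when its mean log2 level in control cells was less than 0.5 above the 0 h mean at 2 h and at least 0.8 above it at both 8 h and 10 h. Of 11893 measured genes with 1 symbol, each represented by its brightest probe set, 106 met these limits. Another 14 of them were then left out by name or family (among them IFIT1, MX1, B2M, CXCL6 and the solute carriers), which left the 92. The levels of control cells at 0, 2, 8 and 10 h therefore chose the members, and they are given below as a description, with no test. The knockdown arrays and the control arrays at 4 h took no part in the choice, and all tests compare only their means. The estimate of the spread in those tests came from all arrays, including those that chose the members.

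Log2 expression was measured on 38 Affymetrix arrays. The knockdown arm received siRNA against ORMDL3, which encodes a brake on the first step of sphingolipid synthesis in the endoplasmic reticulum, and the labels call the other arm only control. In both arms the cells, at passage 90 to 110, were silenced for 48 h, kept without serum for 24 h and given 1 ng/ml IL1B for 2, 4, 8 or 10 h, while the 0 h arrays had no IL1B. The groups were knockdown at 0 h (3 arrays), 2, 4, 8 and 10 h (4 arrays each), and control at 0, 2, 4 and 10 h (4 arrays each) and 8 h (3 arrays). Without untreated arrays at the later hours, the effect of IL1B and that of the hours in culture cannot be told apart. Nothing in the labels says whether replicates came from separate cultures, and p-values here reflect the spread among these arrays, which may be technical.

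IL1B signals through its receptor to NF-kB and the MAP kinases, which switch on a first wave of cytokine and chemokine genes within a short time and without new protein synthesis. Later genes often depend on the products of the first wave: newly made transcription factors such as C/EBP beta and AP-1 proteins, or secreted interferons and cytokines of the IL6 family that act back on the same cells through STAT proteins. Interferon turns on antiviral genes that often carry a promoter element called ISRE.

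The arrays were alike in scale, with medians between 8.02 and 8.19. ORMDL3 lay between 5.00 and 5.57 over the 19 knockdown arrays and between 6.78 and 7.77 over the 19 control arrays, with no overlap. All 10 epithelial and A549 markers that could be measured (KRT7, KRT8, KRT18, KRT19, EPCAM, CDH1, AKR1B10, AKR1C2, ALDH1A1 and ALDH3A1) stood at 6.10 or more on every array. In knockdown cells at 8 h, 0 of them was called higher (11.2% of all probe sets) and 7 were called lower (17.7% of all). Their median change was -0.31, and whether this bears on the late genes was not tested. Of 10 markers of other cell types, CD14 and COL1A1 were measured, and neither was called in either direction at any hour of the knockdown arm.

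The late rise was present in the knockdown arm, whose arrays had not been used to find the genes. At 8 h, 90 of the 92 members were higher than at 0 h by limma (adjusted p under 0.05), where 11.2% of all 14488 probe sets were called higher, and at 10 h 89 members were higher, where 11.6% of all probe sets were. The median change of the members was 0.92 at 8 h and 0.90 at 10 h on the log2 scale, beside medians of -0.04 and -0.02 over all probe sets. Of the 92 members, 0 were called lower at either hour by limma, where 17.7% and 13.8% of all probe sets were, and 0 were lower at an unadjusted p under 0.05 or with the replicate number as a block. The members not called higher were CCBE1 and CST1 at 8 h and CCBE1, CST1 and IFITM3 at 10 h. In RNA from whole cultures, more cells using a gene and more RNA per cell cannot be told apart.

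At 2 h most members had moved little in knockdown cells. Limma called 24 of the 92 higher, a larger share than the 9.57% of all probe sets. It called 6 lower, against 13.8% of all, and the median change was 0.12. The early risers included TMEM158, a membrane protein known as a target of Ras signalling (0.75 ± 0.13, adjusted p = 5.11e-05), and CEBPB, which encodes C/EBP beta (0.68 ± 0.09, adjusted p = 1.32e-07). The 6 genes called lower at 2 h were all called higher at 8 h: STC2, NAPEPLD, PARP9, IGFBP1, MYOCD and STAMBPL1, with 2 h changes between -0.57 and -0.37. With the replicate number as a block 7 members were lower at 2 h, and the added one was GREM1 (-0.45, adjusted p = 0.000913, against -0.47 and adjusted p = 0.0919 without the block). The calls of 4 of them at 2 h were lost when 1 knockdown array at 0 h was left out. STC2 then stood at -0.54 (adjusted p = 0.0947, without replicate 1), PARP9 at -0.42 (adjusted p = 0.117, without replicate 2), MYOCD at -0.37 (adjusted p = 0.0745, without replicate 2) and STAMBPL1 at -0.27 (adjusted p = 0.0861, without replicate 1).

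By 4 h, 66 members were higher than at 0 h in knockdown cells (12.6% of all probe sets), with a median change of 0.56. Limma called 0 members lower at 4 h (17.5% of all probe sets), 1 was lower at an unadjusted p under 0.05, and GREM1 alone was called lower with the replicate number as a block. From 2 h to 4 h, 54 members rose (7.82% of all probe sets) and 0 fell by limma (6.81% of all), also at an unadjusted p under 0.05 and with the block. From 4 h to 8 h, 42 rose (9.8% of all) and 1 fell (12.7% of all). Set against 2 h directly, 84 members were higher at 8 h (14.5% of all probe sets) and 0 lower by limma (16.3% of all), also at an unadjusted p under 0.05 and with the block. Between 4 h and 10 h, 39 members still rose (12.5% of all probe sets) and 3 fell (11% of all). From 8 h to 10 h the set stood nearly still, with 1 member higher (1.82% of all probe sets), the metalloprotease ADAM12 (0.39 ± 0.09), and 1 lower (0.511% of all), the ADP-ribosyltransferase PARP12 (-0.33 ± 0.07, adjusted p = 0.0114). The PARP12 call was lost in 2 of 39 repeats that left out 1 array or every replicate 4, with -0.30 (adjusted p = 0.0658) without knockdown 8 h replicate 1.

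**Figure D1:**
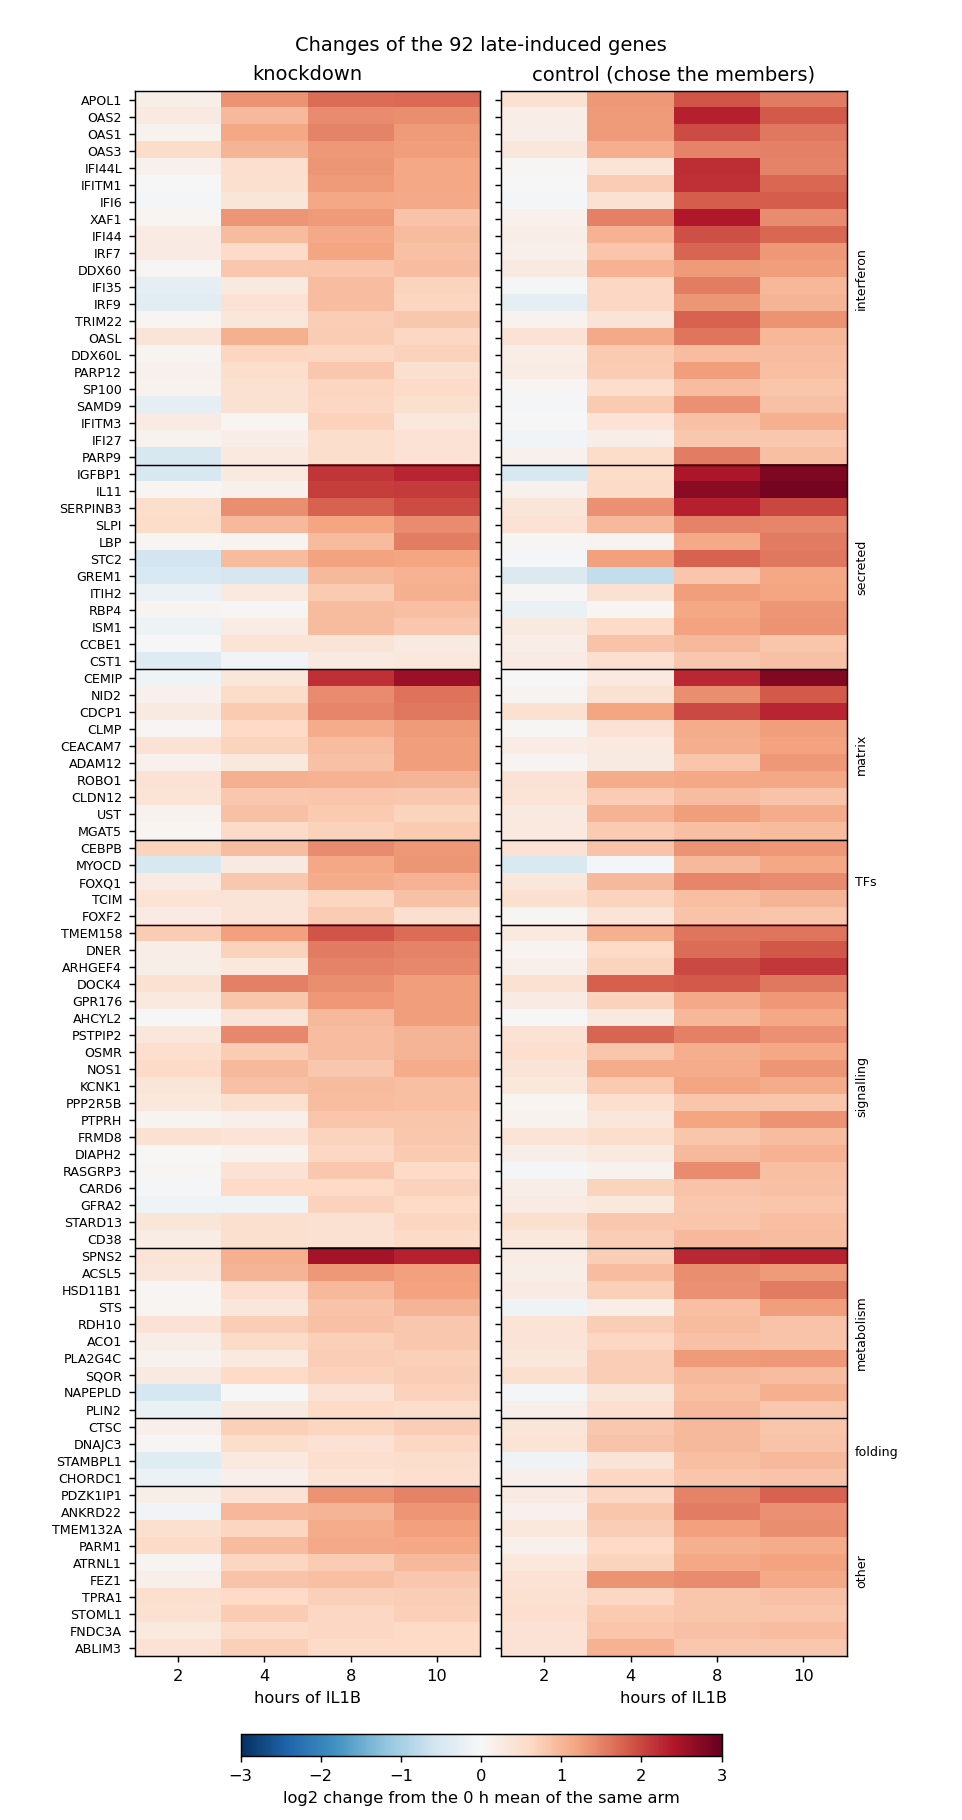
Log2 change of each of the 92 members from the 0 h mean of its own arm, at 2, 4, 8 and 10 h of IL1B, in knockdown cells (left) and in the control cells that chose the members (right), with members grouped by role. Most of the colour lies at 8 and 10 h in both panels, and the interferon-stimulated genes at the top are darker in control cells at 8 h than in knockdown cells.

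When the limits of the member rule were applied to the means of the knockdown arm, with the same names left out, 58 genes met them, and 46 of these were members. That is 50% of the members and 79.3% of the genes found in knockdown cells, where 0.563% of all 11893 genes met the limits before names were dropped. Of the 46 members that did not, 7 had a 2 h change of 0.5 or more and 39 were under 0.8 at 8 h or 10 h. The 46 that did held 10 of the 22 interferon-stimulated members and 36 of the other 70. In control cells the limits ran through a continuous range of values. Just inside the 2 h limit lay OSMR (0.497), STOML1 (0.495), STARD13, SQOR and TCIM (0.479), and just outside it TC2N (0.505), XDH, PARP14, LHFPL6 and DNAJB9 (0.536). Just inside the limit at 8 h and 10 h lay ABLIM3 (0.803), IFI27, PLIN2, GFRA2 and CST1 (0.820), and just outside it FGF12 (0.795), ERAP1, LIFR, BMPER and RPPH1 (0.775).

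The largest group by role comprised 22 interferon-stimulated genes. In knockdown cells all 22 were higher at 8 h and 21 at 10 h, with median changes of 0.93 and 0.82, and 14 were higher at 4 h but only OAS3 at 2 h (0.55 ± 0.12, adjusted p = 0.000601). They hold the oligoadenylate synthetases OAS1, OAS2 and OAS3, which make the second messenger that switches on RNase L, and the helicase-related DDX60 and DDX60L. IFITM1 and IFITM3 block the fusion of viruses with cell membranes, TRIM22 is a ubiquitin ligase that restricts viruses, and IRF7 and IRF9 are transcription factors of the interferon system. In the annotation's gene order IFI44L lies next to IFI44, IFITM1 next to IFITM3, DDX60 next to DDX60L, and OAS3 between OAS1 and OAS2. Probe sets of close copies such as IFITM1 and IFITM3 or DDX60 and DDX60L may share signal, so how far each copy moved on its own is uncertain.

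APOL1, a secreted apolipoprotein that kills trypanosomes, had the largest change of this group in knockdown cells. It stood at 8.02, 8.34, 7.56 and 7.75 at 8 h, against 6.32, 6.51 and 5.91 at 0 h, so that every 8 h array lay above every 0 h array (1.67 ± 0.20, adjusted p = 5.55e-08). OAS2 stood at 7.04, 6.93, 6.66 and 6.14 at 8 h, against 5.29, 5.42 and 5.14 at 0 h (1.41 ± 0.22, adjusted p = 5.51e-06). Its lowest 8 h array was still above the highest 0 h array. IFI44L, an interferon-induced gene of little-known function, stood at 5.81, 5.62, 5.43 and 4.89 at 8 h, against 4.00, 4.14 and 4.23 at 0 h (1.32 ± 0.23, adjusted p = 3.11e-05). The lowest array of both genes at 8 h was replicate 4, and it did not reach down to the 0 h arrays. IFITM1 rose by 1.29 ± 0.32 at 8 h (adjusted p = 0.00214) and by 1.15 ± 0.32 at 10 h (adjusted p = 0.00688), and the 10 h call was lost without knockdown 0 h replicate 4 (0.94, adjusted p = 0.0538).

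XAF1, which binds and opposes the apoptosis inhibitor XIAP, and OASL, a relative of the oligoadenylate synthetases that lacks their activity, had the highest ratios of 4 h to 10 h change in the group, 1.56 and 1.76, where its median was 0.74. XAF1 stood at 6.33, 5.96, 6.05 and 6.57 in knockdown cells at 4 h, against 4.75, 4.97 and 4.99 at 0 h (1.32 ± 0.19, adjusted p = 1.41e-06). By 10 h it stood at 6.07, 5.66, 5.64 and 5.63, below its 4 h mean, a difference that limma did not call. OASL stood at 6.80, 6.85, 6.50 and 6.73 at 4 h, against 5.71, 5.65 and 5.58 at 0 h, and it was lower at 10 h than at 4 h (-0.46 ± 0.15, adjusted p = 0.0179). That call was lost in 3 of 39 repeats that left out arrays, with -0.41 (adjusted p = 0.0655) when every replicate 4 was left out. Over the group, the mean at 10 h was below that at 8 h for 18 of 22 genes in knockdown cells and 19 of 22 in control cells, while among the other 70 members this held for 26 and 27.

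The smallest changes of this group in knockdown cells belonged to IFITM3, IFI27 and PARP9. IFITM3 stood at 7.71, 7.57, 7.69 and 7.65 at 8 h, against 7.10, 6.84 and 6.98 at 0 h, with no overlap (0.68 ± 0.16, adjusted p = 0.00156), but at 10 h its change was 0.31 ± 0.16 (adjusted p = 0.172). IFI27 stood at 6.27, 5.62, 6.04 and 5.79 at 8 h, against 5.50, 5.42 and 5.29 at 0 h, and PARP9, an ADP-ribosyltransferase family member, at 7.98, 7.71, 7.56 and 7.49, against 7.23, 7.29 and 6.96. Both were called at 8 h (0.52 ± 0.16 each, adjusted p = 0.0109 and 0.0126), with 8 h arrays above all 0 h arrays. Both calls were lost without 1 array, for IFI27 with 0.41 (adjusted p = 0.059) without knockdown 8 h replicate 1 and for PARP9 with 0.43 (adjusted p = 0.081) without knockdown 0 h replicate 4. At 10 h the call for PARP9 (0.43, adjusted p = 0.0489) was lost in 25 of 39 such repeats and that for IFI27 (0.43, adjusted p = 0.039) in 6 of 39, both reaching their highest p without knockdown 0 h replicate 4, at 0.33 (adjusted p = 0.205) and 0.38 (adjusted p = 0.134). IFI35 at 10 h (0.66, adjusted p = 0.0292) was lost in 3 repeats, with 0.45 (adjusted p = 0.204) without that same array.

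The wider list of interferon-stimulated genes, of which 59 were measured and 22 were members, rose in large part as well. At 8 h of the knockdown arm 48 of the 59 were higher (11.2% of all probe sets) and 2 lower (17.7% of all), and their median change was 0.71. The non-members with the largest change at 8 h were MX1, an antiviral GTPase that the rule left out by name (2.67), the guanylate-binding protein GBP3 (2.20), IFIT1 (1.84), also left out by name, and GBP4 (1.82). GBP3 and GBP4 were already at 1.16 and 0.84 at 2 h, whereas MX1 stood at 0.30 and IFIT1 at -0.37.

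Promoter windows of 250 bases before to 50 bases after the annotated start were searched in RefSeq sequence (GRCh38.p14), which held a window for 72 members. The ISRE was searched as GAAA, any 2 bases and GAAA again, on both strands. It matched in 12 of the 17 interferon-stimulated members with a window (70.6%) and in 2 of 55 other members (3.64%). Among genes that rose early and stayed high in control cells it matched in 5 of 115 (4.35%), and among measured genes with a window in 3.65%. Counted by window instead of by gene, the share was 3.57% of all 35116 windows. The stretches below show the matches of 9 of these 12 interferon-stimulated members and of the only other members with a match, FEZ1 and STS. The 3 not shown are OAS3, SAMD9 and PARP12. Each runs 5′ to 3′ along the gene's strand, with 8 flanking bases, and capitals mark the matches.
IFI6, chr1:27672268-27672356, minus strand: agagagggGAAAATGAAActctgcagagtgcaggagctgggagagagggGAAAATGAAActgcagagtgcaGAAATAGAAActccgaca
IFI44L, chr1:78620276-78620392, plus strand: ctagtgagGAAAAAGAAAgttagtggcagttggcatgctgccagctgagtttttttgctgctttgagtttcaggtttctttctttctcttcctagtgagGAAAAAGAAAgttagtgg
IFI44, chr1:78649763-78649788, plus strand: acactgagTTTCAGTTTCctttctct
DDX60, chr4:168318788-168318848, minus strand: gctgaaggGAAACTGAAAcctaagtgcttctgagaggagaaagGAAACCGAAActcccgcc
DDX60L, chr4:168480525-168480580, minus strand: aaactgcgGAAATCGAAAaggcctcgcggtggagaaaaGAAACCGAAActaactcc
IFITM1, chr11:313992-314051, plus strand: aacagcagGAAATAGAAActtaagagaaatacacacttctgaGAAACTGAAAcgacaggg
IFITM3, chr11:320878-320920, minus strand: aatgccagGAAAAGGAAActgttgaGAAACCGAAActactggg
IFI27, chr14:94110620-94110658, plus strand: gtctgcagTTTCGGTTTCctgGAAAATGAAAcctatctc
PARP9, chr3:122564324-122564349, minus strand: gcgcaaagTTTCAGTTTCgcttccct
FEZ1, chr11:125496444-125496469, minus strand: agaggagaGAAACAGAAAtgcataaa
STS, chrX:7252160-7252191, plus strand: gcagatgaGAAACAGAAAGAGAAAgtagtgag

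In IFI44L the same 10 letters occurred 2 times within repeated sequence, from -164 to -64 relative to the start, and IFI6 held 3 matches from -156 to -84. DDX60 and DDX60L each held 2, and so did IFITM1, IFITM3 and IFI27, while IFI44 and PARP9 held 1. In IFITM1 and IFI27 the ISRE overlapped a match to GAS, the element bound by STAT dimers, which was searched as TTCNNNGAA. GAS matched in 35.3% of the interferon-stimulated members, 14.5% of the other members, 13.9% of the early and sustained genes and 8.61% of measured genes. Counted by window instead of by gene, the share was 7.66% of all windows. XAF1, SP100, OAS1, IRF9 and IFI35 had a window without these ISRE letters. FEZ1, an adaptor for transport along microtubules, was higher at 8 h in knockdown cells by 0.90 ± 0.14 (adjusted p = 1.14e-05), and STS, the steroid sulfatase, by 0.85 ± 0.13 (adjusted p = 7.46e-06). A match is a run of letters and no evidence of binding.

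**Figure D2:**
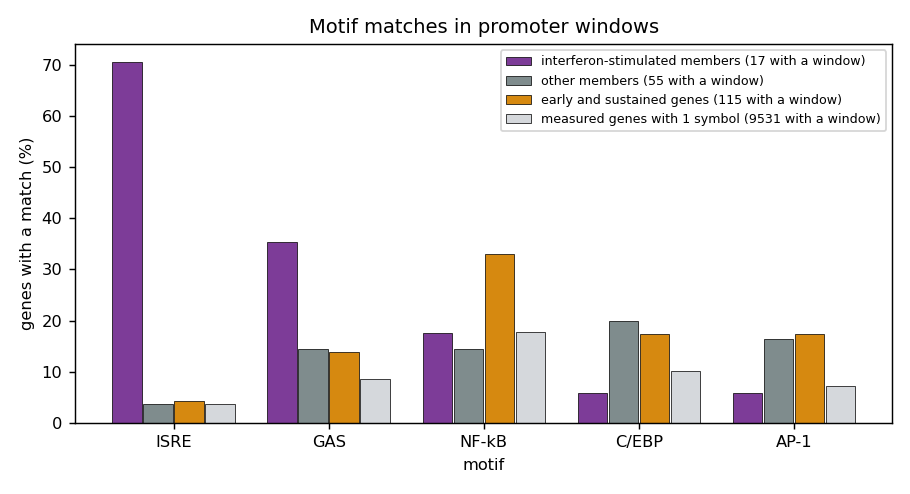
Share of genes with at least 1 motif match in the promoter window (percent, vertical axis) for 5 motifs, in 17 interferon-stimulated members, 55 other members, 115 early and sustained genes and 9531 measured genes with a window. The ISRE bar of the interferon-stimulated members stands at 70.6%, and the NF-kB bar is highest for the early and sustained genes.

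The other motifs were less unevenly spread. NF-kB sites (the consensus known by that name, both strands) matched in 17.6% of interferon-stimulated members, 14.5% of other members, 33% of early and sustained genes and 17.7% of measured genes with a window. C/EBP (TTGCNNAA) matched in 5.88% of interferon-stimulated members, 20% of the other members, 17.4% of early and sustained genes and 10.1% of measured genes. AP-1 (TGANTCA) matched in 5.88%, 16.4%, 17.4% and 7.15% of the same groups. Over all members with a window the shares were 16.7% for C/EBP and 13.9% for AP-1. The other members with a C/EBP match were CEMIP, FNDC3A, GPR176, MGAT5, NAPEPLD, OSMR, PARM1, RASGRP3, RBP4, STS and TPRA1. Those with an AP-1 match were ANKRD22, CARD6, DOCK4, GPR176, IL11, NOS1, OSMR, RBP4 and STARD13.

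Among the 12 secreted factors, protease inhibitors and plasma proteins, 10 were higher in knockdown cells at 8 h and 10 at 10 h, and 5 at 4 h. IL11, a cytokine of the IL6 family that signals through gp130, changed almost entirely between 4 h and 8 h. Its knockdown arrays read 8.63, 8.70 and 8.14 before IL1B, 8.63, 8.63, 8.50 and 8.41 after 2 h, and 8.64, 8.74, 8.59 and 8.47 after 4 h. They read 10.64, 10.83, 10.45 and 10.36 after 8 h and 10.66, 10.91, 10.44 and 10.33 after 10 h. No array at 8 h or 10 h overlapped those of the first 3 times. The change at 8 h was 2.08 ± 0.14 (adjusted p = 1.69e-13), while at 4 h it was 0.12 ± 0.14 (adjusted p = 0.597). The IL11 promoter is shown because this gene was among the 12 largest changes and held an AP-1 match, marked in capitals.
IL11, chr19:55370414-55370713, minus strand: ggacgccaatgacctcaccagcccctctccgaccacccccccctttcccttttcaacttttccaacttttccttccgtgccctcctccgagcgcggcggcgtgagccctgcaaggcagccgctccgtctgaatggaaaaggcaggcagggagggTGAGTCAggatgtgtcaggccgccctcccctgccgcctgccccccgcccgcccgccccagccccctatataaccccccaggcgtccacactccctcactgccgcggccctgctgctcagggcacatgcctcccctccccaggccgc

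IGFBP1, a binding protein for insulin-like growth factors, dipped and then rose. In knockdown cells it was lower at 2 h (8.65, 8.78, 8.86 and 9.00, against 9.06, 9.35 and 9.50 at 0 h, -0.48 ± 0.11, adjusted p = 0.00103), with no overlap. It stood at 11.58, 11.47, 11.61 and 11.72 at 10 h (2.30 ± 0.11 over 0 h, adjusted p = 5.51e-18), far above all of these. Its 4 h change of 0.29 ± 0.11 (adjusted p = 0.0349) was lost in 5 of 39 repeats, with 0.17 (adjusted p = 0.307) without knockdown 0 h replicate 1. SERPINB3, an inhibitor of cysteine and serine proteases whose probes may also read its close copy SERPINB4, stood at 6.19, 6.34, 6.22 and 5.25 at 10 h, against 4.17, 3.92 and 4.03 at 0 h (1.96 ± 0.32, adjusted p = 1.61e-05). Replicate 4 lay well below the other 10 h arrays and still above every 0 h array.

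SLPI, which inhibits neutrophil elastase, rose by 1.42 ± 0.28 at 10 h (adjusted p = 0.000174). Its 4 h change of 0.97 (adjusted p = 0.0068) lost the call without knockdown 0 h replicate 4 (0.80, adjusted p = 0.0519). LBP, the plasma protein that binds lipopolysaccharide, had changed by 0.09 ± 0.20 after 4 h (adjusted p = 0.799), by 0.95 ± 0.20 after 8 h (adjusted p = 0.000317) and by 1.54 ± 0.20 after 10 h (adjusted p = 2.57e-07). STC2, a stanniocalcin hormone, rose by 1.20 ± 0.19 at 8 h after its lower level at 2 h. ITIH2, a heavy chain of a plasma protease inhibitor, was called at 8 h (0.80 ± 0.31, adjusted p = 0.0479) and 10 h (1.07 ± 0.31, adjusted p = 0.00842), and the calls were lost in 24 and 1 of 39 repeats, with 0.54 (adjusted p = 0.258) and 0.82 (adjusted p = 0.0779) without knockdown 0 h replicate 4. RBP4, the carrier of retinol in blood, lost its calls at 8 h and 10 h (0.94 and 0.90) without the same array, with 0.54 (adjusted p = 0.127) and 0.49 (adjusted p = 0.176).

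GREM1, a secreted antagonist of bone morphogenetic proteins, had the lowest ratio of 4 h to 10 h change, -0.49. In knockdown cells it stood at 8.91, 8.96 and 9.30 before IL1B, at 8.43, 8.45, 8.49 and 8.81 after 4 h and at 10.07, 9.96, 9.94 and 10.39 after 10 h. The 4 h arrays were all below the 0 h arrays and the 10 h arrays all above them. The change at 4 h was -0.51 ± 0.20 (adjusted p = 0.0534, and -0.49 with adjusted p = 0.000213 with the replicate number as a block) and that at 10 h 1.04 ± 0.20 (adjusted p = 0.000174). ISM1, a secreted inhibitor of new vessels, rose by 0.94 ± 0.15 at 8 h (adjusted p = 1.43e-05).

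CST1 and CCBE1 were the members not called higher at either 8 h or 10 h in knockdown cells. CST1, a cystatin that inhibits cysteine proteases and has close copies its probes may also read, stood at 9.39, 8.88, 8.44 and 9.02 at 8 h, against 9.14, 8.33 and 8.53 at 0 h, and the arrays overlapped (0.27 ± 0.25, adjusted p = 0.484). Its level at 0 h in control cells was lower, at 7.85, 7.28, 7.29 and 7.29, below all knockdown arrays at that hour. CCBE1, needed for the growth of lymphatic vessels, stood at 6.18, 6.53, 6.19 and 6.56 at 8 h, against 6.14, 5.86 and 5.90 at 0 h, without overlap (0.40 ± 0.16, adjusted p = 0.055, and 0.41 with adjusted p = 0.0419 with the replicate number as a block). At 0 h its control arrays, at 5.13, 5.29, 5.78 and 5.29, also lay below all knockdown arrays. CCBE1 was called at 4 h (0.41 ± 0.16, adjusted p = 0.0452), a call lost in 6 of 39 repeats, with 0.37 (adjusted p = 0.213) when every replicate 4 was left out.

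All 10 matrix, adhesion and junction genes were higher in knockdown cells at 8 h and at 10 h, and 9 were higher at 4 h. CEMIP, which binds hyaluronan and is needed to break it down, had the largest 10 h change of the set. Its knockdown arrays stood at 9.28, 8.96, 9.35 and 9.22 at 10 h, against 6.74, 6.48 and 6.62 at 0 h (2.59 ± 0.15, adjusted p = 3.93e-15). Between these times its mean over 4 arrays each was 6.48 ± 0.43 (SD) at 2 h, 6.96 ± 0.25 at 4 h and 8.81 ± 0.21 at 8 h, so that most of the rise came after 4 h. The CEMIP promoter is shown because the gene with the largest 10 h change held a C/EBP match, marked in capitals.
CEMIP, chr15:80779120-80779419, plus strand: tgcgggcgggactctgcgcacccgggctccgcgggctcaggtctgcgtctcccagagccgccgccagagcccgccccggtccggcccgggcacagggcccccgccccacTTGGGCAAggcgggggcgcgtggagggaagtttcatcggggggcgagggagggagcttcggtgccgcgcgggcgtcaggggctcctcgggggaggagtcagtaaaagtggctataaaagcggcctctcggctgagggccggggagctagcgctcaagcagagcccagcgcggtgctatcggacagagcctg

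CDCP1, a transmembrane substrate of Src kinases, stood at 10.51, 10.22, 10.28 and 10.71 in knockdown cells at 10 h, against 8.84, 8.50 and 9.22 at 0 h (1.57 ± 0.17, adjusted p = 4.64e-09). Its neighbour in the annotation's gene order, TMEM158, is also a member. NID2, a nidogen of basement membranes, stood at 10.08, 10.02, 10.20 and 10.35 at 10 h, against 8.43, 8.40 and 8.79 at 0 h (1.63 ± 0.12, adjusted p = 6.87e-13). For both genes every 10 h array was above every 0 h array. ADAM12 (1.26 ± 0.09) and the junction molecule CLMP (1.29 ± 0.14) rose by similar amounts at 10 h. The guidance receptor ROBO1 and the tight-junction protein CLDN12 had reached 1.06 ± 0.06 and 0.82 ± 0.08 by 4 h and were at 1.03 ± 0.06 and 0.81 ± 0.08 at 10 h. UST, which adds sulfate to uronic acids of proteoglycan chains, stood at 0.67 ± 0.09 over 0 h at 10 h and 0.88 ± 0.09 at 4 h, a step that limma did not call (adjusted p = 0.0779).

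All 5 transcription regulators were higher at 8 h and 10 h in knockdown cells. CEBPB was the only one with a change of more than 0.5 at 2 h, and its knockdown arrays went on to 11.91, 11.79, 11.95 and 11.72 at 8 h, against 10.54, 10.31 and 10.41 at 0 h (1.42 ± 0.09, adjusted p = 4.44e-15). MYOCD, a coactivator of serum response factor best known from smooth and heart muscle, was at -0.47 ± 0.13 at 2 h and at 1.33 ± 0.13 at 10 h (adjusted p = 1e-09). The forkhead factors FOXQ1 and FOXF2 rose by 1.12 ± 0.10 and 0.76 ± 0.11 at 8 h. TCIM, a small regulator of Wnt signalling, rose by 0.87 ± 0.11 at 10 h.

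All 19 receptor and signalling genes were higher at 8 h and 10 h, 14 at 4 h and 10 at 2 h. TMEM158 stood at 9.06, 9.03, 9.07 and 9.14 in knockdown cells at 8 h, against 7.06, 7.10 and 7.38 at 0 h (1.90 ± 0.13, adjusted p = 2.93e-13). DNER, a membrane protein that can act on Notch, stood at 7.33, 7.37, 7.06 and 7.72, against 5.78, 5.63 and 6.02 (1.56 ± 0.14, adjusted p = 4.81e-11). ARHGEF4, a guanine nucleotide exchange factor, stood at 7.49, 7.65, 7.46 and 7.33, against 6.00, 5.80 and 6.19 (1.48 ± 0.14, adjusted p = 2.92e-10). In these 3 genes the 8 h and 0 h arrays were well apart. OSMR, the receptor subunit for oncostatin M, rose by 0.92 ± 0.06 at 8 h (adjusted p = 1.92e-13) and lay 0.497 above 0 h at 2 h in control cells, at the edge of the rule.

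DOCK4, an activator of Rac, and PSTPIP2, an adaptor of the actin skeleton, were early within the set. PSTPIP2 stood at 5.87, 5.92, 6.05 and 5.71 in knockdown cells at 4 h, against 4.45, 4.41 and 4.49 at 0 h (1.44 ± 0.13, adjusted p = 3.39e-11), and at 5.52, 5.47, 5.27 and 5.26 at 8 h. It was lower at 8 h than at 4 h (-0.50 ± 0.12, adjusted p = 0.00147), with no overlap of arrays, and lower at 10 h than at 4 h (-0.42 ± 0.12). The 10 h level of DOCK4 was lower than that at 4 h (-0.26 ± 0.10, adjusted p = 0.0463), a call lost in 23 of 39 repeats, with -0.18 (adjusted p = 0.206) without knockdown 4 h replicate 3. At the other end, GFRA2, a receptor for neurturin, was at -0.14 ± 0.18 at 4 h and 0.69 ± 0.18 at 8 h (adjusted p = 0.0035), and the formin DIAPH2 at 0.11 ± 0.09 and 0.61 ± 0.09. NOS1, the neuronal nitric oxide synthase, the potassium channel KCNK1 and the NAD-consuming ectoenzyme CD38 rose by 1.11 ± 0.15, 0.90 ± 0.10 and 0.57 ± 0.12 at 10 h.

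All 10 metabolic genes were higher at 8 h and at 10 h in knockdown cells. SPNS2, the exporter of sphingosine-1-phosphate, a lipid made when sphingolipids are broken down, had the largest 8 h change of the set. It stood at 8.77, 8.84, 8.63 and 8.74 at 8 h, against 6.32, 5.96 and 6.46 at 0 h (2.50 ± 0.13, adjusted p = 1.65e-16). Control arrays stood at 8.31, 8.68 and 8.55 at 8 h, where the arms overlapped. ACSL5, which activates fatty acids, rose by 1.29 ± 0.15 at 8 h, and HSD11B1, which regenerates cortisol, by 1.20 ± 0.11 at 10 h. RDH10, which oxidises retinol, and the iron-regulated aconitase ACO1 rose by 0.82 ± 0.07 and 0.80 ± 0.06 at 10 h. NAPEPLD, which makes N-acylethanolamines, fell at 2 h (-0.54 ± 0.11, adjusted p = 0.000371) and was higher at 10 h (0.68 ± 0.11, adjusted p = 1.38e-05), with arrays at 8.79, 8.61, 8.75 and 8.61 at 10 h, against 8.19, 8.02 and 7.82 at 0 h.

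The 4 genes of protein folding and turnover had small changes, between 0.42 and 0.64 at 8 h. The lysosomal protease CTSC rose by 0.64 ± 0.12 and DNAJC3, a cochaperone that restrains the kinase PERK, by 0.42 ± 0.10. CHORDC1, a partner of the chaperone HSP90, stood at 9.58, 9.36, 9.59 and 10.01 at 8 h, against 9.44, 9.24 and 8.98 at 0 h, and the arrays overlapped. Its call at 8 h (0.42 ± 0.16, adjusted p = 0.0469) was lost in 18 of 39 repeats, with 0.17 (adjusted p = 0.517) when every replicate 4 was left out. Of 45 measured genes of the unfolded protein response and secretory pathway, 1 of them a member, 10 were higher and 3 lower at 8 h of the knockdown arm. Over all probe sets 11.2% were higher and 17.7% lower there. The median change of the 45 was 0.06. The 10 remaining members, less characterised or of other function, were all higher at 4 h, 8 h and 10 h. PDZK1IP1 led them at 8.83, 8.52, 8.38 and 8.70 at 10 h, against 6.91, 7.38 and 7.05 at 0 h (1.49 ± 0.15, adjusted p = 8.46e-10).

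**Figure D3:**
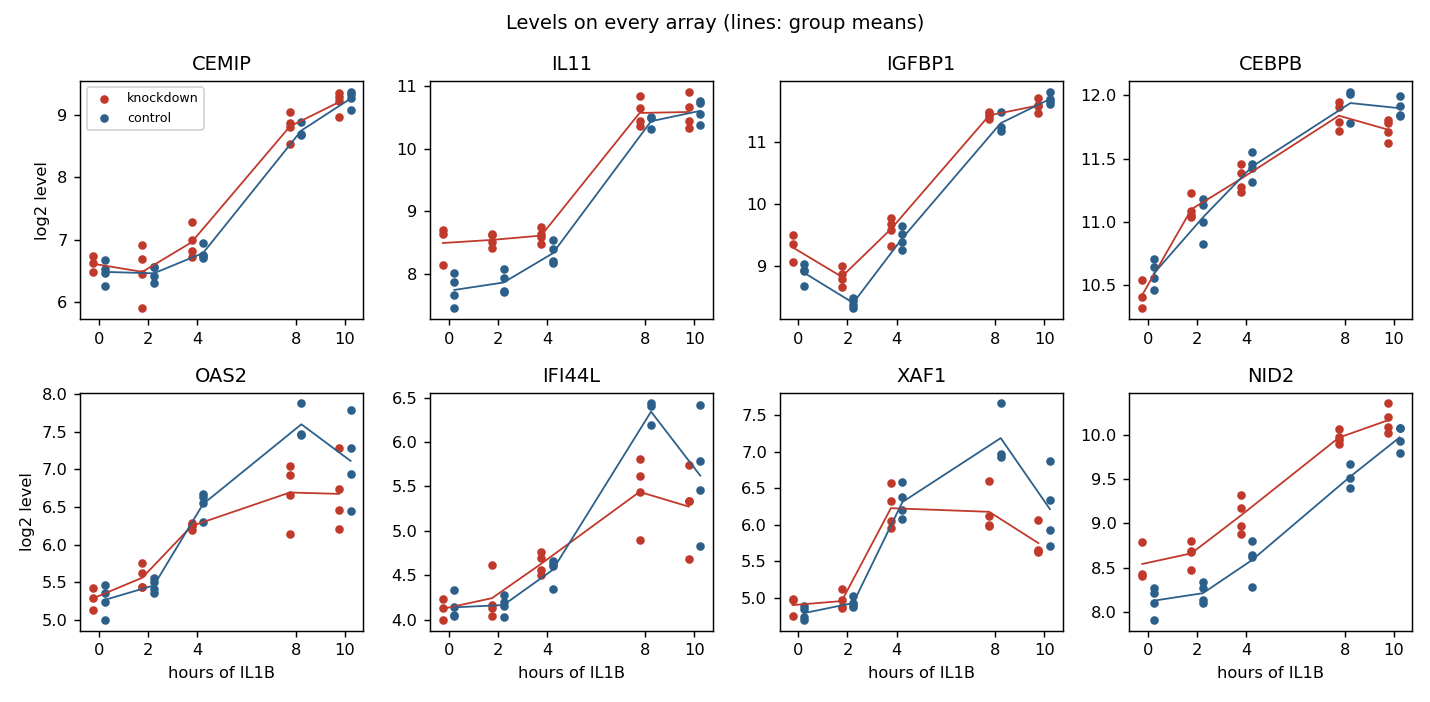
Log2 level on every array (points) and group means (lines) against hours of IL1B for CEMIP, IL11, IGFBP1, CEBPB, OAS2, IFI44L, XAF1 and NID2, with knockdown points drawn left of control points. CEMIP and IL11 step up between 4 h and 8 h in both arms, while OAS2, IFI44L and XAF1 stand lower in knockdown than in control cells at 8 h.

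At 4 h the arms could be compared with a test. Limma called 1 member higher in knockdown than in control cells (1.11% of all probe sets) and 0 lower (0.732% of all). With the replicate number as a fixed block 9 were called higher and 1 lower, as a random block 5 and 1, and the repeats that left out arrays gave 0 to 4 higher and 0 lower. At an unadjusted p under 0.05, 13 were higher and 3 lower. The shares of all probe sets under these other settings were not counted, so these numbers cannot be set against 1.11% and 0.732%. The called gene was NID2, at 8.97, 8.88, 9.18 and 9.32 in knockdown cells, against 8.64, 8.62, 8.28 and 8.80 in control cells, with no overlap (0.50 ± 0.11, adjusted p = 0.00798). Its call was lost without knockdown 4 h replicate 4 (0.42 with an adjusted p of 0.0639), without replicate 3 of the control arm at that hour (0.40 with an adjusted p of 0.0718) and when the 4 h arrays were fitted alone (adjusted p = 0.169). Without overlap of arrays, 7 members were higher (3.35% of all probe sets) and 3 lower (2.68% of all). The median difference over the members was 0.04, and over the 22 interferon-stimulated members it was 0.00.

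At 0, 2, 8 and 10 h the control arrays had chosen the members, so the differences between the arms there are a description and nothing is read from their counts. At 8 h, 27 of the 92 members were lower on every knockdown array than on every control array (8.39% of all probe sets), 11 of them interferon-stimulated, and 5 were higher (6.16% of all). XAF1 stood at 6.60, 6.00, 6.12 and 5.98 in knockdown cells and at 6.93, 7.66 and 6.97 in control cells, a difference of -1.01. TRIM22 differed by -0.97, IFITM1 and OAS2 by -0.91 each and IFI44L by -0.90. In XAF1 and in each of these genes the lowest knockdown array was replicate 4, which the control arm lacked at 8 h. The median difference at 8 h was -0.39 over the interferon-stimulated members and -0.08 over the others. SERPINB3 (-0.92) and the Ras activator RASGRP3 (-0.71) were the lowest of the others.

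At 10 h, 8 members were lower without overlap (4.02% of all probe sets), with IFITM3 as the interferon-stimulated member among them, and 3 were higher (3.59% of all). The medians were -0.22 over the interferon-stimulated members and -0.05 over the others. At 2 h, 16 members were higher without overlap (5.91% of all probe sets) and 4 lower (5.78% of all). At 0 h, 24 members were higher in knockdown cells without overlap (8.37% of all probe sets) and 2 were lower (5.56% of all), with CST1 (1.24) and IL11 among the higher. IL11 stood at 8.63, 8.70 and 8.14 in knockdown cells and at 7.86, 8.00, 7.45 and 7.65 in control cells at 0 h. At 8 h it stood at 10.64, 10.83, 10.45 and 10.36 in knockdown cells and at 10.31, 10.51 and 10.49 in control cells, where the arms overlapped.

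**Figure D4:**
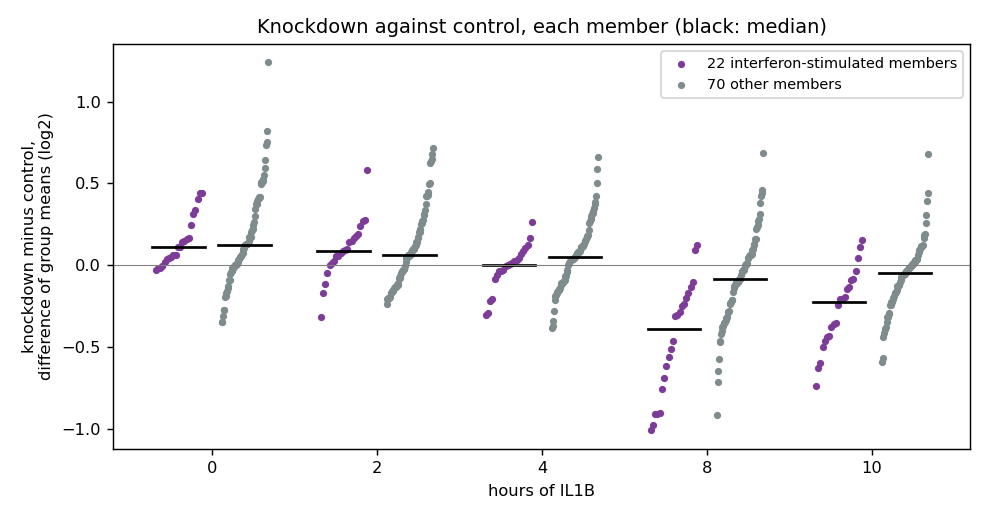
Difference of group means, knockdown minus control (log2), of each member at 0, 2, 4, 8 and 10 h of IL1B, with 22 interferon-stimulated members (purple) left of the 70 others (grey) and medians in black. The purple median stands at -0.39 at 8 h and 0.00 at 4 h, and control values at 0, 2, 8 and 10 h chose the members.

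At 10 h the median over these 22 members, as the change from the 0 h mean of the same arm, was 1.11, 0.86, 0.80 and 0.53 on the knockdown arrays and 1.29, 1.59, 1.23 and 0.91 on the control arrays. The lowest value of each arm was that of replicate 4, and the spread was wider than over the others. Over the other 70 members the same medians were 1.02, 0.93, 0.99 and 0.89 on the knockdown arrays and 1.20, 1.24, 1.17 and 1.07 on the control arrays. At 8 h the 22 members stood at 1.15, 1.09, 0.82 and 0.76 on the knockdown arrays and at 1.45, 1.75 and 1.54 on the control arrays. The arms did not overlap at 8 h and overlapped at 10 h in the interferon-stimulated members. At 8 h, however, the lowest knockdown array (0.76) was replicate 4, and the control arm had no replicate 4 at that hour. The arms at 8 h therefore differ in their replicates as well. Members were chosen for a large change from 0 h in these control arrays, which by itself raises the control values. The difference between the arms is therefore only a description and was not tested.

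**Figure D5:**
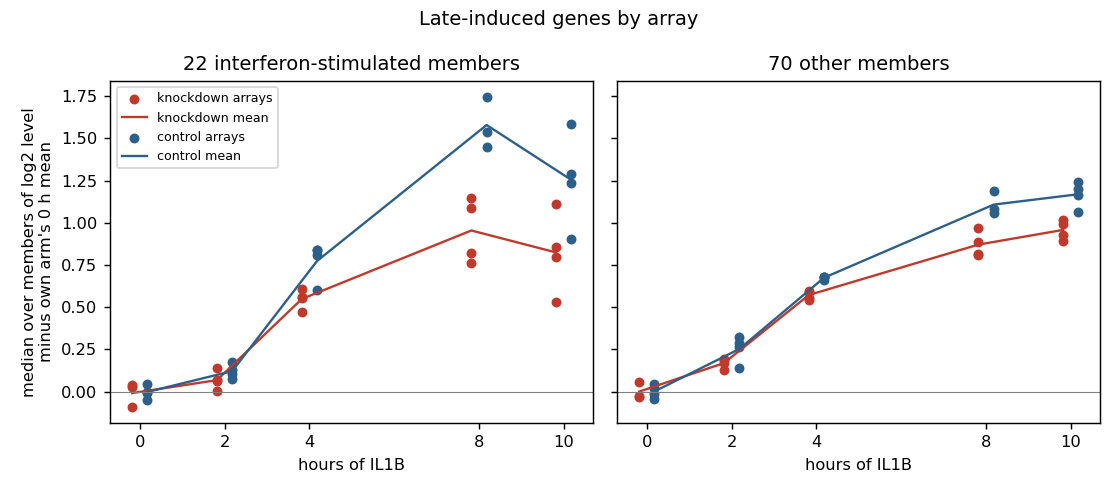
Median over members of the log2 level minus the 0 h mean of the same arm, for each array (points) and as the mean over arrays (lines), against hours of IL1B, for 22 interferon-stimulated members (left) and 70 others (right). In the left panel the points spread from 0.53 to 1.11 on the knockdown arrays and from 0.91 to 1.59 on the control arrays at 10 h, more widely than in the right panel.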

How the data were processed

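The values were log2 levels of 14488 probe sets on 38 arrays, as deposited by the authors. The submitters' processing notes list limma 3.22.7, RMA, hg19 and Affymetrix Power Tools, without role or order. No further normalization was applied, and no detection values were used. The number of arrays limits the precision. At 0 h in knockdown cells, 53 of the 92 members had means below the median of all probe sets (8.16). The lower quartile of the arrays lay between 6.52 and 6.70, and IFI27, IFI44L and PSTPIP2 were among the members below it on every array. How near such levels lay to the detection floor was not tested. Probe sets were named through the platform annotation, with symbols updated by Entrez identifier (12121 of 12132 with 1 symbol matched), and no member had more than 1 probe set. Groups came from the labels. Limma 3.58.1 in R 4.3.3 fitted 1 mean for each of 10 groups to all arrays, with empirical Bayes moderation and Benjamini-Hochberg adjustment over all probe sets, and adjusted p under 0.05 was the call. Changes are log2 differences ± the standard error of the fit. The fit was also run on simulated data with independent noise on every array, which cannot speak to arrays that deviate together.

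Same-numbered arrays deviated together in the comparisons with knockdown 0 h (correlations of 0.131 to 0.541), but not in all other tested comparisons (-0.118 to 0.576). Differently numbered arrays reached 0.240 between knockdown 0 h and 8 h and 0.335 between 0 h and 10 h, so pairing there was less clear. The main calls came from the fit without a block, and the replicate number was added as a block in further settings. Shares of all probe sets called are those of the fit without a block. Values by array were due for the members with the 12 largest and 6 smallest mean changes at 8 h and 10 h in knockdown cells, for members called between the arms at 4 h and for the 5 lowest and 5 highest ratios of 4 h to 10 h change. Other members were named by role, and TRIM22, RASGRP3 and the members with motif matches after their values were seen. The members, roles and gene lists were chosen with earlier results of these data known. Promoter windows are those of RefSeq.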

Additional observations from a re-analysis of the deposited data

Results flagged for a closer look

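Among the members with values by array, 13 of 232 groups of 4 arrays held an array far from the other 3, where chance alone gives about 1 in 20. In the knockdown arm the high arrays were those of GREM1 at 4 h (8.81), UST at 2 h (7.79) and XAF1 at 10 h (6.07). Its low arrays were those of PDZK1IP1 at 8 h (8.20), RBP4 at 2 h (8.58), SERPINB3 at 10 h (5.25) and UST at 4 h (8.23). In the control arm the high arrays were those of CST1 at 0 h (7.85) and 4 h (8.14), GFRA2 at 2 h (5.90), IFITM3 at 10 h (8.06) and NAPEPLD at 10 h (8.54, where the other 3 lay between 8.51 and 8.52), and the low array was that of TMEM158 at 10 h (8.65). CST1 and UST were each marked at 2 hours.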

How the results depend on the processing

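Of 506 member changes followed through the settings run, 0 reversed direction. They were those of all 92 members at 8 h and 10 h over 0 h, and in the other comparisons only the called ones. In those other comparisons, named changes that were not called, such as that of GREM1 at 4 h, were not followed. Leaving out probe sets under the median level left fewer members to test, and 36 were then called higher at 4 h, 43 at 8 h, 43 at 10 h, 40 at 8 h over 2 h and 19 at 10 h over 4 h. With the replicate number as a fixed block, 9 members were higher and 1 lower in knockdown cells at 4 h, and as a random block 5 and 1. The shares of all probe sets called with a block were not counted. The cause was not tested. In that comparison the 4 h arrays fitted alone gave 0 higher, and the settings without 1 array or every replicate 4 gave 0 to 4 higher and 0 lower. Against 0 h the fixed replicate block gave 12 members' calls that the fit without it did not, among them GREM1 at 4 h and CCBE1 at 8 h, and lost 0. Within the knockdown arm it moved no count of members called higher by more than 1.5 times. Without 1 array the counts ran from 19 to 26 at 2 h, 60 to 68 at 4 h, 85 to 90 at 8 h, 81 to 89 at 10 h, 78 to 86 at 8 h over 2 h and 34 to 43 at 10 h over 4 h. Quantile normalization, array medians, variance trend, array weights and knockdown arrays alone kept all these counts within 1.5 times. The set held 60 genes with a 2 h limit of 0.3 and 120 with 0.7, 186 with a late limit of 0.6 and 54 with 1.0, 93 with any probe set or after quantile normalization, and 89 after subtracting array medians. Leaving out 1 control array gave 86 to 95 members and kept 80 to 92 of the 92.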

Other observations

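Other pathways held few members. At 8 h of the knockdown arm 11.2% of all probe sets were called higher and 17.7% lower, beside which the following counts stand. In knockdown cells at 8 h, 19 of 37 measured genes of the IL6 family and JAK-STAT signalling were higher and 4 lower, led by IL6 itself (3.41), and the members IL11 and OSMR stood at 2.08 and 0.92. Of 32 matrix and protease genes, 17 were higher and 2 lower, and the elastase inhibitor PI3 (4.04) and the collagenase MMP1 (2.95) changed most. PI3 is named in the rule but was not among the 14 genes that met its limits and were then left out. In knockdown cells it already stood at 2.99 at 2 h. Among 20 complement and acute-phase genes, of which LBP was the only member, 9 were higher and 2 lower, with SERPINA3 at 3.86. SERPINA3 and IL6 were already at 3.74 and 4.32 at 2 h, when LBP stood at 0.05 and IL11 at 0.05. The lists of antigen presentation (5 higher and 0 lower of 9), lysosome and autophagy (12 and 0 of 29), ubiquitin (14 and 2 of 29) and apoptosis (10 and 2 of 24) held 0 members. In the antigen presentation list, however, B2M met the limits and was left out by name. The rule also left out every symbol starting with PSM, so PSMB10, PSME1 and PSME2 could not be members.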
